A study of Mus musculus with 40 samples.

Results

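The genes described here are 5 cytochrome P450 genes of mouse fat, Cyp2e1, Cyp4b1, Cyp1b1, Cyp7b1 and Cyp27a1, together with Por, the reductase that supplies electrons to P450 enzymes of the endoplasmic reticulum. They are 6 of the 55270 genes of the table. They were chosen by name when their values in the 8 groups were already known. Their levels and changes are therefore a description, and their adjusted p-values say only where a change lies against the spread between libraries. A wider list of every gene whose symbol is Cyp followed by a number, letters and a number, together with Por, held 96 genes, 90 of them outside the 6.

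RNA was sequenced from fat of C57BL/6J mice in 40 libraries. The 8 groups of 5 libraries combined 2 depot labels, subcutaneous fat and visceral fat, with 4 treatments, in which mice ate either normal food or a high-fat diet (HFD), each with or without the drug. The series text gives the drug's name as beta-carotene, the carotenoid from which animals make vitamin A, and the labels give neither its dose nor the length of the treatments. Each library is called by its group and title number. Whether every library is from a different animal is not stated, so p-values measure the spread between these libraries, which may in part be technical. Sums of all values were equal in all libraries. The deposited TPM values are scaled to the whole gene span, introns included, and not to transcript length: low values times the span (GENCODE M21) were within 2% of whole multiples of 1 read in 96.1% to 97.2% of cases, against 38.5% to 45.3% with the exon length. A gene with long introns is therefore low on this scale, and TPM is used below only to compare a gene, or the sum of a marker list, between libraries. Levels of different genes are compared only after rescaling to the summed exon length, which assumes that reads were counted over exons. In bulk tissue, fewer cells of a type and less RNA per cell cannot be told apart.

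The series text places visceral fat at the epididymis, but the depot labels ran against depot markers such as Upk3b and Hoxc10. Upk3b, a uroplakin of the mesothelium on epididymal fat, lay at 6.94 to 219 TPM in the 20 libraries labelled subcutaneous and at 0 to 0.646 TPM in the 20 labelled visceral. Hoxc10, a positional gene of inguinal fat, lay at 0.0931 to 6.56 TPM and at 17.6 to 48.3 TPM. The summed TPM of a list of 7 inguinal fat genes that holds Hoxc10 did not separate the labels. Its group medians were 178 to 258 TPM in fat labelled subcutaneous and 181 to 257 TPM in fat labelled visceral. Of the same list, Tbx15 lay at 0 to 0.0929 TPM in fat labelled subcutaneous and at 1.34 to 5.76 TPM in fat labelled visceral. Shox2 lay at 0.26 to 1.5 TPM and at 5.35 to 23.4 TPM. Depots are therefore named only as "labelled subcutaneous" and "labelled visceral", and "visceral" is not used here as an anatomical statement. Titles of all 20 libraries labelled subcutaneous end in e or ewat, and those of all 20 labelled visceral in i. Epididymis and testis markers summed to 954 to 70800 TPM in 6 libraries labelled subcutaneous. B cell markers summed to 551 to 6490 TPM in libraries labelled subcutaneous and to 183 to 21200 TPM in those labelled visceral, and exceeded 1000 TPM in 18 and 12 of them. Libraries over that sum were left out in an alternative only in the label visceral, and libraries over 500 TPM of epididymis and testis markers only in the label subcutaneous. Liver markers summed to 1780 and 766 TPM in HFD 50 and 51 labelled visceral. Depth was about 15.4 M to 27 M counted reads per library, an approximate figure from these steps of 1 read.

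Cytochrome P450 enzymes hold a heme and insert an oxygen atom into their substrates. Those of the endoplasmic reticulum take their electrons from NADPH through the Por protein, and those of mitochondria through adrenodoxin and its reductase. In mammals CYP2E1 oxidises ethanol, acetone and other small molecules and is best known from liver, CYP4B1 oxidises fatty acids and some foreign compounds, and CYP1B1 oxidises oestrogens, retinoids and polycyclic hydrocarbons and is a classical target of the aryl hydrocarbon receptor. CYP27A1 is the mitochondrial sterol 27-hydroxylase and CYP7B1 the oxysterol 7-alpha-hydroxylase, which acts on its product.

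The promoters of 4 members with differing responses to diet and drug are shown first, so that their starts can be compared; 5 of the 6 genes matched a RefSeq promoter. Each sequence runs from 250 bases before to 50 bases after the gene's start in RefSeq (build GRCm38.p6; the table itself was made on GRCm39, per the submitters' processing notes), and is written along the gene's own strand. Capitals mark the 4 short words searched on both strands, which were TATAAA (the TATA box), CCAAT (the CCAAT box), GGGCGG (the GC box) and GCGTG, the core that the aryl hydrocarbon receptor recognises. The coordinates are chr7:140763569-140763868 (plus strand) for Cyp2e1, chr4:115647672-115647971 (minus strand) for Cyp4b1, chr17:79715012-79715311 (minus strand) for Cyp1b1 and chr5:135688895-135689194 (plus strand) for Por.
Cyp2e1: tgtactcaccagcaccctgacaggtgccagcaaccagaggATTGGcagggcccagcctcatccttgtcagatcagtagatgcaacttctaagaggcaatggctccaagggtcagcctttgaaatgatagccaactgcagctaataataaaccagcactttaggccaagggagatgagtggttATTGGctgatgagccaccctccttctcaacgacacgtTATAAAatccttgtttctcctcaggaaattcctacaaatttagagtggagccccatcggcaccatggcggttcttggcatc
Cyp4b1: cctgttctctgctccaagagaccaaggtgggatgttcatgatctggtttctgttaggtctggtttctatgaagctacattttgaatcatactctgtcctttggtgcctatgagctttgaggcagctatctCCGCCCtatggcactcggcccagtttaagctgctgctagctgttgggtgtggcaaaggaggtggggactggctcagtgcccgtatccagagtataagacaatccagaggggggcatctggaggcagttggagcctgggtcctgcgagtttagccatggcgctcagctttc
Cyp1b1: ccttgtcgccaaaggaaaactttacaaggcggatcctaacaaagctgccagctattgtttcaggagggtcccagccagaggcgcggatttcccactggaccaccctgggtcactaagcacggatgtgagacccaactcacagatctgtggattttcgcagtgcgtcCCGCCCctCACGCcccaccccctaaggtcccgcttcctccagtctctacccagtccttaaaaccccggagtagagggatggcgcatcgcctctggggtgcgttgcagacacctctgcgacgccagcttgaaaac
Por: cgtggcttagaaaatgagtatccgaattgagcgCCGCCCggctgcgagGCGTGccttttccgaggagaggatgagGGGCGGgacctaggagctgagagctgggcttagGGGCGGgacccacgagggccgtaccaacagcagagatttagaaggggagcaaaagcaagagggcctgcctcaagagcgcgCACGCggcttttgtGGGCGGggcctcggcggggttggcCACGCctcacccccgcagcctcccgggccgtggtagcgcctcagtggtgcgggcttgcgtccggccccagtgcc
The Cyp2e1 window held TATAAA beginning 31 bases before the start, and CCAAT on the opposite strand 68 and 210 bases before it. The Cyp1b1 window held GCGTG 76 bases and GGGCGG 84 bases before the start, both on the opposite strand, and no TATAAA. The Cyp4b1 window held a single word, GGGCGG on the opposite strand 120 bases before the start. The Por window held GGGCGG 48, 142, 175 and 217 bases and GCGTG 24, 62 and 202 bases before the start, and neither TATAAA nor CCAAT. No match overlapped another. Of 32851 promoters of the same length, 13.6% held TATAAA, 37.4% CCAAT, 35.7% GGGCGG and 32.4% GCGTG. The matches describe letters only and are not evidence of binding.

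Cyp2e1 was the most abundant P450 transcript of this fat. Over the 40 libraries it lay at 205 to 8190 TPM with a median of 3680 TPM. On levels rescaled to exon length, its rank among all genes ran from 6 to 334 with a median of 10.5. On that scale it made up a median of 89.15% of the sum over 94 P450 genes (range 30.7% to 93.7%). The sum without Cyp2e1 lay at 530.4 to 1502 on the same scale, so in most libraries the summed P450 level was mainly that of this gene.

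In fat labelled subcutaneous, Cyp2e1 was at 5123, 3969, 4073, 4946 and 4369 TPM with a normal diet (libraries 91, 92, 96, 98 and 99; mean 4496 ± 516.8, SD, n = 5). With HFD it was at 278.2, 2722, 204.9, 1279 and 2729 TPM (libraries 22, 23, 50, 82 and 83; mean 1443 ± 1246). The groups did not overlap, and HFD 22 and HFD 50 lay far below the other 3 HFD libraries. The fitted change was -2.34 (log2 of TPM + 1, SE 0.61), 5.05-fold lower, with adjusted p = 0.0229 from limma over all 7776 genes tested. In that comparison 10.3% of all genes tested passed the threshold of 0.05 and 15.9% had groups that did not overlap. The call ended without HFD 22 (the highest adjusted p over single libraries left out, 0.0775), without HFD 50, without normal 91 and with no filter on low values (adjusted p = 0.0718), with log2 changes of -2.74 to -1.81 over the left-out libraries.

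Macrophage transcripts moved with the 2 lowest Cyp2e1 values. The summed TPM of 10 macrophage markers was 9500 in HFD 22 and 10300 in HFD 50, and 2580 to 3220 in the other 3 HFD libraries labelled subcutaneous, against 2100 to 3300 with a normal diet. Of 8 macrophage markers tested, 4 rose with HFD, beside 6.57% of all genes, and 7 of 8 fell with drug under HFD, beside 23%. The part of macrophage transcripts in the Cyp2e1 values was not tested. The 10 adipocyte markers summed to 35700 to 46100 TPM with HFD and to 37300 to 44000 TPM with a normal diet. With HFD 0 of the 9 tested passed the threshold, beside 10.3% of all genes. In fat labelled visceral, where Cyp2e1 was also lowest in HFD 50 and HFD 22, the macrophage sums of those libraries were 2300 and 1760 TPM, inside the range of 1270 to 3600 TPM for that group.

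Under HFD, drug was accompanied by higher Cyp2e1 in fat labelled subcutaneous. The HFD with drug libraries 25, 26, 27, 52 and 62 were at 3277, 1993, 1866, 3450 and 5231 TPM (mean 3164 ± 1362). They overlapped the HFD libraries, since HFD 23 and HFD 83 lay above the 2 lowest of them. These 2, libraries 27 and 26, had epididymis and testis marker sums of 14700 and 6740 TPM. The sums were 6.63 to 76.8 TPM in libraries 25, 52 and 62. Adipocyte markers summed to 23800 and 23000 TPM in libraries 27 and 26, and to 41200 to 50100 TPM in the others. The part of admixed tissue in these Cyp2e1 values was not tested. The fitted change was 1.73 (SE 0.61), 3.32-fold, with limma adjusted p = 0.0436. In this comparison 27.4% of genes passed the threshold, 342 upward and 1787 downward (545 and 890 with quantile normalization), 17.5% did not overlap, and the median change of all genes was -0.19. The call ended with no filter (adjusted p = 0.116), with quantile normalization (0.0653), with a fit of the 2 compared groups alone (0.111) and without HFD 22, HFD 50 or HFD with drug 25, 52 or 62 (up to 0.137). It rests on values that differ widely within both groups.

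Cyp2e1 in fat labelled visceral was at 5921, 4509, 3149, 5028 and 3972 TPM with a normal diet (libraries 92, 94, 96, 98 and 99) and at 702.7, 1915, 582.2, 2736 and 1249 TPM with HFD (libraries 22, 23, 50, 51 and 83). All 5 HFD libraries lay below all 5 normal libraries. The change was -1.86 (SE 0.34), 3.62-fold lower, with limma adjusted p = 0.00386, and it passed the threshold without each single library in turn (adjusted p 0.00107 to 0.0157). In this comparison 8.93% of all 7760 genes tested were called and 6.31% had groups that did not overlap. Without the libraries of this label that hold more than 1000 TPM of B cell markers, the normal group keeps only library 92, whose spread is then assumed to be like that of the other groups. The change was then -2.44 with adjusted p = 0.379, and 0 of 6030 genes passed.

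With drug under HFD, Cyp2e1 in fat labelled visceral was at 2367, 1741, 2622, 4231 and 2498 TPM (libraries 25, 26, 27, 54 and 62). This group overlapped the HFD group, whose library 51 lay above 4 of these 5 values. The change was 1.08 (SE 0.34, 95% interval 0.407 to 1.76), which did not pass (limma adjusted p = 0.0727), where 5.18% of genes were called and 4.81% did not overlap. It passed without HFD 23 or without HFD 51 (adjusted p down to 0.0245). With a normal diet, the drug groups had means of 4784 ± 2304 and 5006 ± 949.4 TPM in fat labelled subcutaneous and visceral, and the changes against a normal diet alone were -0.07 (95% interval -1.27 to 1.14) and 0.16 (-0.52 to 0.84). Normal with drug 8 and 9 labelled subcutaneous were the extremes, at 8187 and 1710 TPM.

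**Figure D1:**
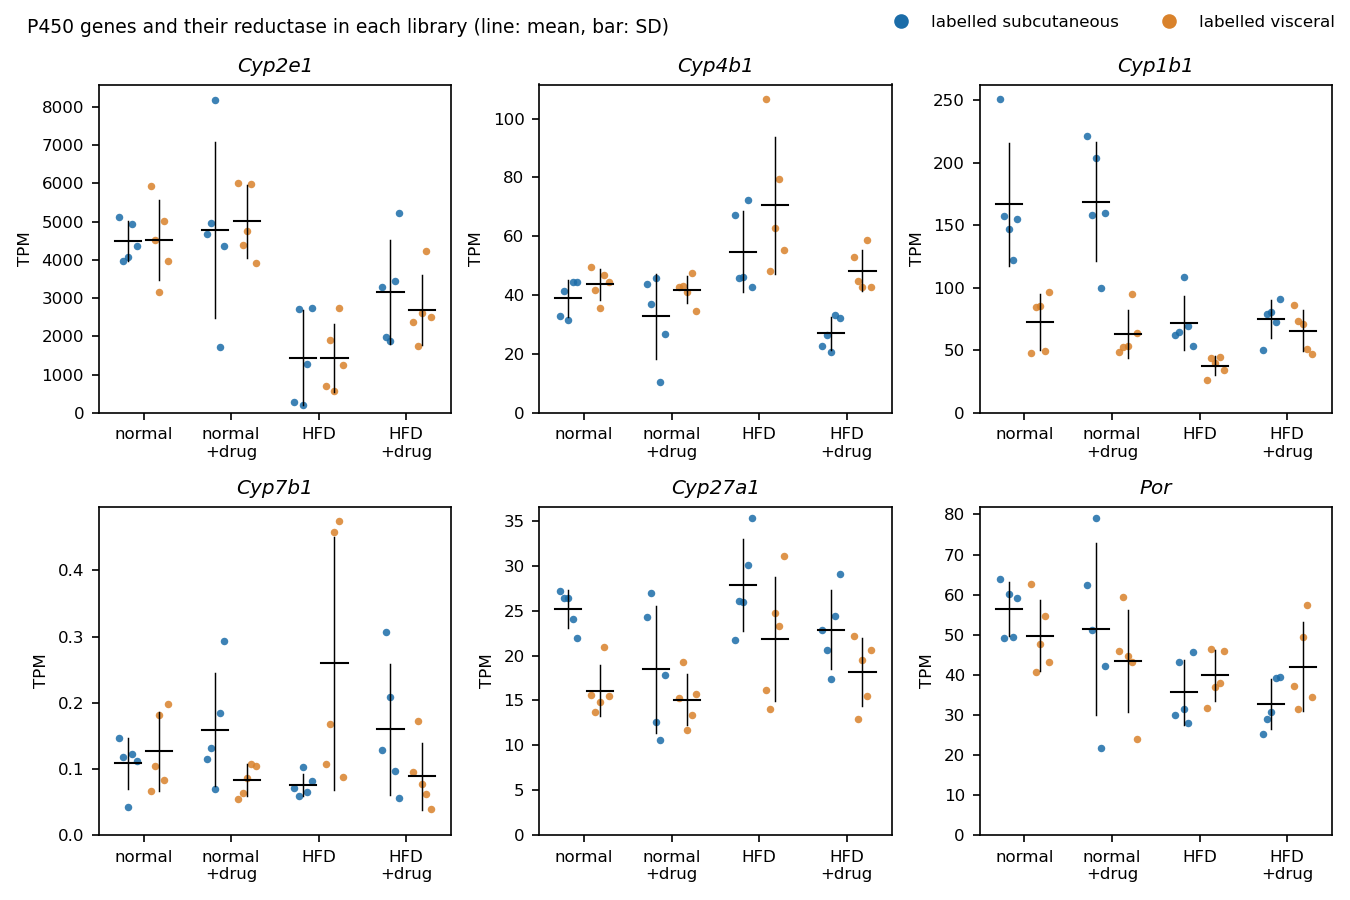
TPM of the 6 genes in each of 40 libraries (points), by treatment and depot label, with the group mean (line) and SD (bar), n = 5 per group, on linear axes that start at 0. Cyp2e1 is lowest in the HFD groups, with means of 1443 and 1437 TPM, Cyp1b1 is highest in labelled subcutaneous fat on a normal diet with or without drug, and Cyp7b1 stays below 0.5 TPM.

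The share of P450 transcripts held by Cyp2e1, on levels rescaled to exon length, followed its level. The share in fat labelled subcutaneous had a median of 90.7% with a normal diet, 89.4% with drug on a normal diet, 69.5% with HFD and 89.9% with HFD and drug. The corresponding medians in fat labelled visceral were 89.6%, 91.5%, 72.5% and 84.6%. In HFD 22 and HFD 50 labelled subcutaneous Cyp2e1 held 38.3% and 30.7% of P450 transcripts, and in HFD 50 labelled visceral 43.5%. The next P450 after it was most often Cyp4b1. Cyp2e1 over Por on the same scale lay at 21.7 to 32.2 with a normal diet and at 2.09 to 20.2 with HFD in fat labelled subcutaneous, and at 21.2 to 35.5 and 5.05 to 23.1 in fat labelled visceral. These ratios restate the Cyp2e1 values and are not tested.

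**Figure D2:**
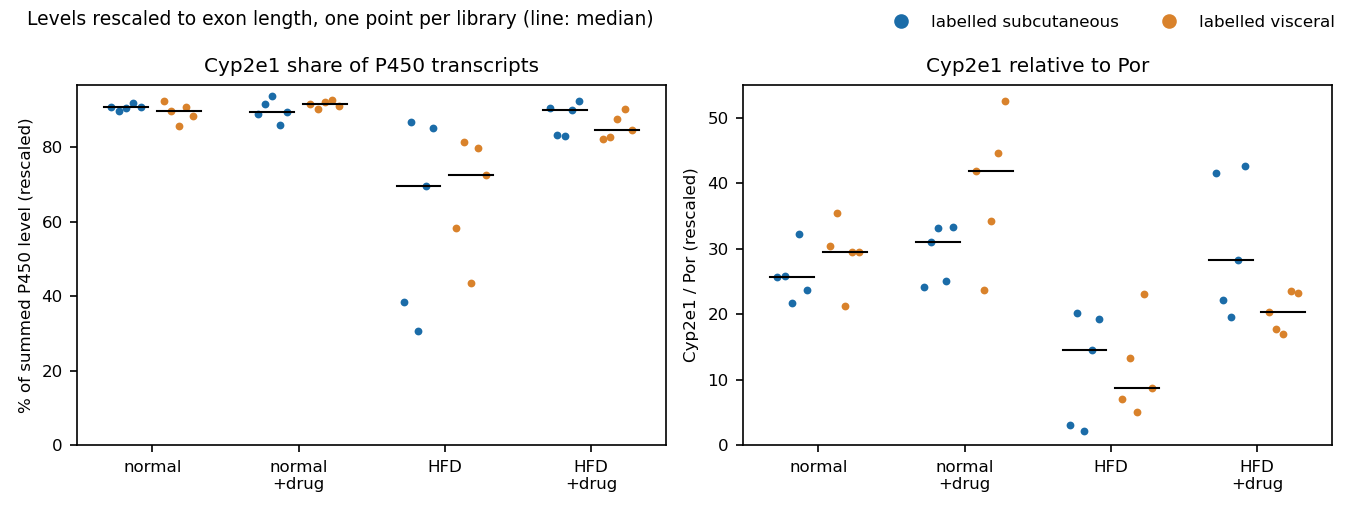
Levels rescaled to exon length: left, Cyp2e1 as a percentage of the sum over P450 genes in each library; right, Cyp2e1 divided by Por; points are libraries, lines are group medians (n = 5). The HFD groups have median shares of 69.5% and 72.5%, and all other groups have medians of 84.6% or more.

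Cyp4b1 was higher with HFD in fat labelled visceral and lower with drug under HFD in fat labelled subcutaneous. In fat labelled visceral it was at 49.6, 41.8, 35.7, 46.9 and 44.5 TPM with a normal diet (libraries 92, 94, 96, 98 and 99) and at 106.8, 48.1, 63.0, 79.4 and 55.5 TPM with HFD (libraries 22, 23, 50, 51 and 83). HFD 22 lay above all other libraries of the study, and HFD 23 overlapped the normal group. The change was 0.63 (SE 0.17), 1.55-fold, with limma adjusted p = 0.0271. The call ended without HFD 22, 50 or 51 or normal 94, 96 or 99 (up to 0.0764), with no filter (0.0658) and in a fit of the 2 groups alone (0.0819). Endothelial markers summed to 937 to 2430 TPM with HFD and to 739 to 1120 TPM with a normal diet in this label. Smooth muscle and pericyte markers summed to 241 to 671 and 154 to 241 TPM. Of these genes 1 of 6 and 2 of 5 rose, beside 6.3% of all genes. In HFD 22, 23, 50, 51 and 83 the endothelial sums were 2430, 937, 1770, 1320 and 1850 TPM. The smooth muscle and pericyte sums were 627, 241, 671, 263 and 490 TPM in the same order. The Cyp4b1 call also ended without the liver-rich HFD 50 and 51 together (0.59, limma adjusted p = 0.144), a choice made after the data were seen. Without the libraries rich in B cell markers, which leaves normal 92 alone in its group, the Cyp4b1 change was 0.56.

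Cyp4b1 in fat labelled subcutaneous was at 32.8, 41.3, 31.6, 44.4 and 44.5 TPM with a normal diet (libraries 91, 92, 96, 98 and 99) and at 67.1, 45.7, 46.1, 72.3 and 42.9 TPM with HFD (libraries 22, 23, 50, 82 and 83). The groups overlapped, and the change of 0.46 (95% interval -0.11 to 1.04) did not pass. With HFD and drug it was at 22.6, 26.3, 20.7, 33.1 and 32.4 TPM (libraries 25, 26, 27, 52 and 62), below every HFD library. Libraries 26 and 27 were rich in epididymis and testis markers (6740 and 14700 TPM), and library 25 was not (76.8 TPM). The change was -0.98 (SE 0.29), 1.98-fold lower, with limma adjusted p = 0.0206. It ended with no filter (0.0588), with quantile normalization (-0.79, adjusted p = 0.0653), and without HFD 22 or HFD with drug 25 (up to 0.0567). The drug libraries under HFD labelled visceral were at 42.7 to 58.6 TPM, and the change of -0.49 (SE 0.17) did not pass (adjusted p = 0.0937), except without HFD 23 (-0.61, adjusted p = 0.0237). With drug under HFD in fat labelled subcutaneous, 2 of 6 endothelial, 2 of 4 smooth muscle and pericyte and 3 of 10 progenitor and fibroblast markers fell, beside 23% of all genes. In fat labelled visceral 3 of 6 endothelial and 2 of 5 smooth muscle markers fell, beside 5.04%. The part of vascular transcripts in the Cyp4b1 values was not tested. The lowest Cyp4b1 value of the study was 10.6 TPM in normal with drug 9 labelled subcutaneous, the library richest in epididymis and testis markers.

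Cyp1b1 fell with HFD in both depot labels and was higher in fat labelled subcutaneous. In fat labelled subcutaneous it was at 251.5, 157.8, 147.3, 122.6 and 155.1 TPM with a normal diet (libraries 91, 92, 96, 98 and 99) and at 61.9, 64.5, 108.8, 69.7 and 53.7 TPM with HFD (libraries 22, 23, 50, 82 and 83). The groups did not overlap, with normal 91 far above its group. The change was -1.21 (SE 0.23), 2.31-fold lower, with limma adjusted p = 0.0039. It passed without each single library (adjusted p 0.00345 to 0.0158). With HFD and drug the 5 libraries were at 50.2 to 90.9 TPM, inside or near the HFD range, and the change of 0.07 (95% interval -0.38 to 0.53) did not pass.

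Cyp1b1 in fat labelled visceral was at 48.1, 85.1, 85.2, 49.8 and 96.7 TPM with a normal diet (libraries 92, 94, 96, 98 and 99) and at 26.1, 44.1, 39.6, 44.4 and 34.2 TPM with HFD (libraries 22, 23, 50, 51 and 83). The groups did not overlap, and normal 92 and 98 lay close above the HFD range. The change was -0.90 (SE 0.23), 1.87-fold lower, with limma adjusted p = 0.023. The call ended without HFD 22 or 50 or normal 94, 96 or 99 (up to 0.0758), with no filter (0.061), and without HFD 50 and 51 together (0.0687). Without the libraries rich in B cell markers, which leaves normal 92 alone in its group, the change was -0.43 (0.623). B cell markers summed to 599 to 21200 TPM with a normal diet and 305 to 4480 TPM with HFD in this label. The part of these transcripts in the Cyp1b1 values was not tested.

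Under HFD with drug, Cyp1b1 in fat labelled visceral was at 86.1, 73.5, 71.2, 51.1 and 47.4 TPM (libraries 25, 26, 27, 54 and 62), above every HFD library of that label. The change was 0.78 (SE 0.23, 95% interval 0.322 to 1.24) and did not pass (limma adjusted p = 0.0587), although the groups did not overlap. It passed with a filter of 30 TPM (0.0467) and without HFD 23 (0.0392). Libraries 25, 26 and 27, the highest 3, were also those rich in B cell markers, and without such libraries the change was 0.46 (0.254).

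Cyp27a1 had the narrowest range of the 6 genes, 10.6 to 35.3 TPM or 3.35-fold over all libraries, with group means from 15.1 ± 2.85 TPM (normal with drug, labelled visceral) to 27.8 ± 5.12 TPM (HFD, labelled subcutaneous). Each neighbouring pair of groups in the order of means overlapped. No diet or drug comparison passed. The change with HFD was 0.13 (95% interval -0.28 to 0.53) in fat labelled subcutaneous and 0.38 (-0.0027 to 0.76) in fat labelled visceral. Drug under HFD gave -0.27 (-0.68 to 0.13) and -0.23 (-0.61 to 0.16).

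Cyp7b1 was the lowest of the 6 genes. It lay at 0.0387 to 0.474 TPM over the 40 libraries, which corresponds to about 15 to 245 counted reads, because its span of 171389 bases is 79.1 times its exon length. Rescaled to exon length its median was 3.42 and its highest value 14.3, where the medians of Cyp27a1 and Cyp1b1 were 91 and 69.4. It reached the filter of 10 in 5 libraries on neither scale and was not tested, so that 5 of the 6 genes entered the fits. Its group means on the rescaled level ran from 2.27 ± 0.46 (HFD, labelled subcutaneous) to 7.93 ± 5.70 (HFD, labelled visceral). In the latter group it was at about 45, 73, 149, 245 and 34 reads (libraries 22, 23, 50, 51 and 83), highest in the 2 libraries with the highest liver marker sums. The part of liver transcripts in these values was not tested.

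Por, the shared reductase, did not pass in any diet or drug comparison. In fat labelled subcutaneous it was at 63.9, 49.3, 60.2, 49.3 and 59.1 TPM with a normal diet (libraries 91, 92, 96, 98 and 99) and at 29.9, 43.2, 31.4, 28.1 and 45.6 TPM with HFD (libraries 22, 23, 50, 82 and 83). Every HFD library lay below every normal library. The change was -0.67 (SE 0.25, 95% interval -1.15 to -0.18), 1.59-fold lower, with limma adjusted p = 0.0933. It passed in a fit of the 2 groups alone (0.013) and without the libraries rich in epididymis markers (0.0296). The change in fat labelled visceral was -0.31 (-0.72 to 0.10), with means of 49.7 ± 8.91 and 39.8 ± 6.29 TPM. Its changes with drug under HFD were -0.11 (-0.6 to 0.37) and 0.05 (-0.36 to 0.46).

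Counted together, 2 of the 5 tested members passed with HFD in fat labelled subcutaneous, beside 10.3% of all genes, and 3 of 5 in fat labelled visceral, beside 8.93%. The counts with drug under HFD were 2 of 5 and 0 of 5, beside 27.4% and 5.18%. In the latter, 3 of 5 had an unadjusted p below 0.05, beside 1668 of 7760 genes (21.5%). All 10 member calls were also made on values rescaled to exon length, an alternative chosen after the data were seen. With drug on a normal diet no member passed in either label, and neither did any other gene (0% of 7776 and 0% of 7760 genes). At an unadjusted p below 0.05, limma gave 504 and 284 genes there, including 1 and 0 members, the member being Cyp27a1 in fat labelled subcutaneous (-0.51, unadjusted p = 0.0239). In those comparisons 1.16% and 0.902% of genes had groups that did not overlap. The comparison of HFD with a normal diet and that of HFD with and without drug share the HFD libraries, so opposite signs in the pair of comparisons are not separate observations.

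Between depot labels, averaged over the 4 treatments, 3676 of 8799 genes (41.8%) were called, and 3 of 5 members. Cyp1b1 was lower in fat labelled visceral (-0.92, SE 0.12, limma adjusted p = 2.65e-07) and remained called without any 1 of the 40 libraries. Cyp27a1 was also lower (-0.38, SE 0.10, adjusted p = 0.00309) and Cyp4b1 higher (0.46, SE 0.12, adjusted p = 0.00316). Without the libraries rich in epididymis or B cell markers these last changes were -0.38 and 0.36 and the calls ended (0.0648 and 0.0924). Cyp2e1 (0.11, 95% interval -0.39 to 0.62) and Por (0.04, -0.19 to 0.27) did not pass. For Cyp1b1 the order of the group means had gaps only below labelled subcutaneous normal diet and above labelled visceral HFD, and for the other members every neighbouring pair of groups overlapped.

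Whether the responses differed between diets or labels was tested by interaction. The drug response in fat labelled subcutaneous differed between diets for 1 of 7776 genes (0.0129%), the HFD response differed between labels for 0 of 8799 genes (0%), and the drug response under HFD differed between labels for 16 genes (0.182%). No P450 gene was among them. At an unadjusted p below 0.05, limma gave 1376, 756 and 1764 genes, with no member in the first pair and 1 member, Cyp1b1, in the last. That Cyp1b1 difference was 0.71 (SE 0.34, 95% interval 0.0458 to 1.36, adjusted p = 0.236). For Cyp2e1 the difference in drug response between diets was 1.80 (0.0973 to 3.5, limma unadjusted p = 0.0526, adjusted p = 0.288). The difference in its HFD response between labels was 0.48 (-0.94 to 1.89), and neither passed.

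Among the 90 other P450 genes, few reached the filter. Of the 96 genes of the wider list, 93 were above 0 in at least 1 library and 19 averaged over 10 TPM in at least 1 group, and 28 averaged over 10 once rescaled to exon length. The list had 11 genes tested in fat labelled subcutaneous, 13 in fat labelled visceral and 15 in the fit of all libraries. With HFD, 5 of 11 passed in fat labelled subcutaneous, beside 10.3% of all genes, and 5 of 13 in fat labelled visceral, beside 8.93%. Outside the members these were 3 of 6 and 2 of 8. A gene had to reach 10 TPM in at least 5 libraries of a fit, in any groups, to be tested. The span scaling keeps genes with long introns below that, so these counts describe only P450 genes that are high on this scale. On the rescaled level 6 of 19 passed with HFD in fat labelled subcutaneous, beside 10.1%, and 7 of 18 in fat labelled visceral, beside 10.5%.

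Cyp2f2, best known as a P450 of airway club cells in mice, fell with HFD in both labels. In fat labelled visceral it was at 88.8, 103.2, 64.7, 95.7 and 90.0 TPM with a normal diet (libraries 92, 94, 96, 98 and 99) and at 1.76, 39.99, 8.67, 32.4 and 17.2 TPM with HFD (libraries 22, 23, 50, 51 and 83). The groups were widely apart, and HFD 22 was the lowest library. The change was -2.60 (SE 0.55), 6.05-fold lower, with limma adjusted p = 0.00752. The means in fat labelled subcutaneous were 13.8 ± 5.45 and 1.31 ± 1.25 TPM, and the change was -2.75 (SE 0.47, adjusted p = 0.00181). Both calls held without each single library. Without the libraries rich in B cell markers, which leaves normal 92 alone in its group, the change in fat labelled visceral was -2.99. Cyp2f2 was 7.23-fold higher in fat labelled visceral over all treatments (2.85, SE 0.25, adjusted p = 6.77e-11). Its drug changes under HFD of 0.70 (adjusted p = 0.282) and 1.47 (0.119) did not pass; the latter passed without HFD 23 (0.0335).

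Cyp4v3, a fatty acid omega-hydroxylase of the family mutated in a human crystalline retinal dystrophy, rose with HFD and was lower with drug under HFD. In fat labelled subcutaneous it was at 17.8, 27.8, 30.2, 27.5 and 22.7 TPM with a normal diet, at 62.2, 65.1, 83.7, 91.1 and 88.0 TPM with HFD, and at 47.8, 27.96, 27.8, 57.2 and 49.8 TPM with HFD and drug, in the library order used above. The HFD group lay above both others with no overlap. The change with HFD was 1.60 (SE 0.26), 3.03-fold, with limma adjusted p = 0.00114, and it passed without each single library. With drug it was -0.92 (SE 0.26, adjusted p = 0.0158), which ended with quantile normalization (-0.75, 0.0653). The means in fat labelled visceral were 20.9 ± 4.88, 49.4 ± 12.7 and 24.98 ± 2.36 TPM, and the changes were 1.19 (SE 0.18, adjusted p = 0.00144) and -0.92 (SE 0.18, adjusted p = 0.0173). The latter ended without HFD 22 or 50 or HFD with drug 62 (up to 0.0714), with quantile normalization (0.120) and without the libraries rich in liver markers (-0.84, 0.107). It also ended without the libraries rich in B cell markers (-1.13). That fit leaves normal 92 alone in its group, and the HFD change in it was 1.04.

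Cyp4f17, a member of the family of leukotriene and fatty acid hydroxylases, fell with HFD in fat labelled subcutaneous, from 24.8 ± 4.15 to 10.5 ± 3.32 TPM (-1.20, SE 0.28, limma adjusted p = 0.0139; 0.051 without HFD 22). Its change of -0.65 in fat labelled visceral missed the threshold (0.0571) and passed without HFD 51 (0.0132) and on the rescaled level (0.0279). Cyp2d22, at 32.9 to 132 TPM, had changes of -0.83 and -0.52 with HFD that did not pass (adjusted p = 0.076 and 0.119). The former passed with quantile normalization (0.0441), without the epididymis-rich libraries (0.0266), without HFD 82 (0.044) and in a fit of the 2 groups alone (0.0131). Cyp4f13, at 5.60 to 13.3 TPM, passed in none of the comparisons.

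**Figure D3:**
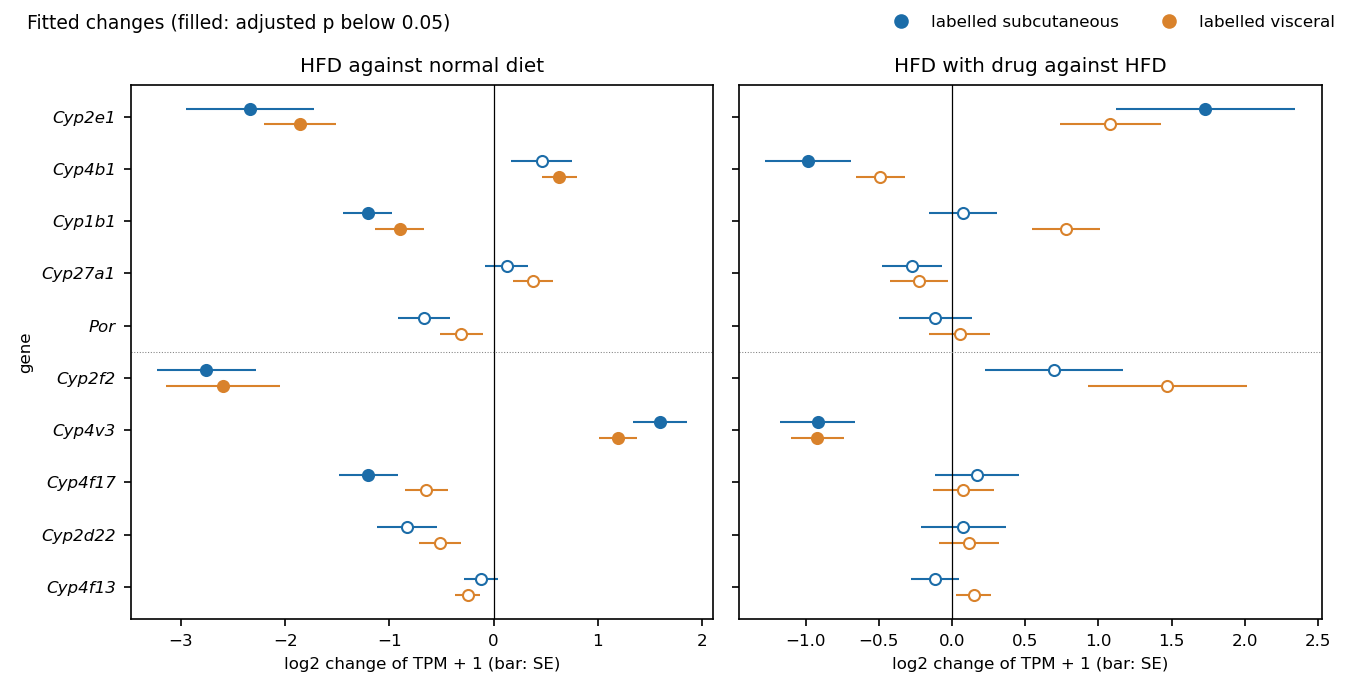
Fitted change in log2(TPM + 1) with SE bars for the 5 tested members (above the dotted line) and 5 other P450 genes, in the 2 depot labels; filled points passed an adjusted p of 0.05 over all genes tested. With HFD, Cyp2e1, Cyp1b1 and Cyp2f2 lie to the left in both labels and Cyp4v3 to the right; with drug under HFD, Cyp4v3 lies to the left in both labels.

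Cyp26b1, which degrades retinoic acid, was tested in fat labelled visceral and in the fit of all libraries. It was 2.22-fold higher in fat labelled visceral (1.15, SE 0.15, limma adjusted p = 5.31e-07). With HFD it was at 2.97 to 16.6 TPM and with a normal diet at 11.02 to 23.2 TPM in that label, and the change of -0.96 (SE 0.33) did not pass (0.0733), except without HFD 51 (0.0266) and on the rescaled level (-1.07, 0.0474). In fat labelled subcutaneous it was below the filter, at 3.83 to 9.73 TPM with a normal diet and 1.45 to 3.29 TPM with HFD, with no overlap. On the rescaled level it was tested there and fell (-1.50, SE 0.30, limma adjusted p = 0.00486). Cyp2b10, the classical target of the constitutive androstane receptor in liver, stayed below the filter within each label. In fat labelled subcutaneous it lay at 1.11 to 4.65 TPM with a normal diet and at 2.24 to 36.8 TPM with drug, and in fat labelled visceral at 1.56 to 5.16 and 2.21 to 13.4 TPM. The groups overlapped in both labels, and the gene was not tested there.

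Several P450 genes had their highest values in libraries that also held transcripts of other tissues. Cyp4a14, a fatty acid omega-hydroxylase abundant in liver, was at 82.7, 70.8 and 44.8 TPM in HFD 50, HFD 51 and normal 96 labelled visceral, the 3 libraries with the highest liver marker sums (1780, 766 and 496 TPM). Cyp8b1, the sterol 12-alpha-hydroxylase of bile acid synthesis, was at 49.0, 59.6 and 27.2 TPM in these libraries, and Cyp3a11, Cyp4a10, Cyp2d10 and Cyp2d26 reached 27.1, 26.5, 33.8 and 40.6 TPM in HFD 50 or 51. Cyp3a11 is itself 1 of the 7 genes of the liver list. The fitted drug changes of Cyp4a14 and Cyp8b1 under HFD in fat labelled visceral were -3.37 and -1.86, which did not pass (adjusted p = 0.0538 and 0.0853). Cyp17a1, the steroid 17-alpha-hydroxylase of testis and adrenal, was at 158, 117.5, 105.9, 41.3 and 23.3 TPM in 5 libraries labelled subcutaneous that were rich in epididymis and testis markers, and at a median of 0.235 TPM over all libraries. The part of the admixed tissue in these values was not tested. Between depot labels 10 of the list's 15 tested genes were called, beside 3676 of 8799 genes (41.8%). The 7 of them outside the members include Cyp4a14 (1.45), Cyp8b1 (0.98) and Cyp17a1 (-1.93). Without the libraries rich in epididymis or B cell markers, 3 of 10 tested were called, and calls over all genes also became fewer.

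**Figure D4:**
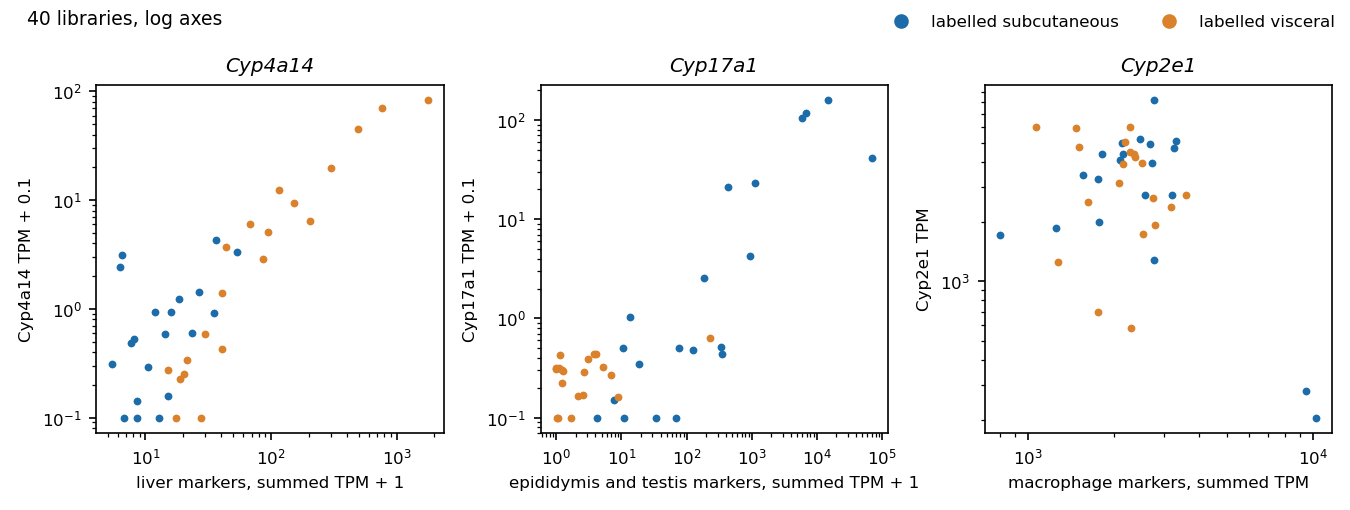
3 P450 genes against summed marker TPM in 40 libraries, on log axes: Cyp4a14 against 7 liver markers, Cyp17a1 against 17 epididymis and testis markers, and Cyp2e1 against 10 macrophage markers. The highest Cyp4a14 values lie at the highest liver sums. The highest Cyp17a1 value, 158 TPM, lies in the labelled subcutaneous HFD with drug group, whose epididymis and testis sums reach 14700 TPM. The highest such sum, 70800 TPM, lies in the normal with drug group of that label, where Cyp17a1 reaches 105.9 TPM. The 2 lowest Cyp2e1 values (204.9 and 278.2 TPM) lie at macrophage sums of 10300 and 9500 TPM.

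Of the electron transfer partners of P450 enzymes, 8 of 10 genes were tested in each label. With HFD 2 of 8 rose in each label and 0 fell, beside 6.57% and 6.3% of all genes that rose, at list medians of 0.11 and 0.16, where the medians of all genes were 0.01 and -0.05. Cyb5r3, the NADH-cytochrome b5 reductase, rose in both (0.64, SE 0.12, limma adjusted p = 0.00336, and 0.82, SE 0.17, adjusted p = 0.00597), from 98.3 to 154 TPM and from 62.9 to 114 TPM. Cyb5r1, a related reductase, rose in fat labelled subcutaneous (0.32, adjusted p = 0.0383) and Fdx1, the adrenodoxin that feeds mitochondrial P450 enzymes such as CYP27A1, in fat labelled visceral (1.26, SE 0.19, adjusted p = 0.00144). Under HFD 2 of 8 fell with drug in each label, beside 23% of all genes in fat labelled subcutaneous and 5.04% in fat labelled visceral. Cyb5r3 fell by 0.66 (adjusted p = 0.00267) and by 0.77 (0.0236), Cyb5r1 by 0.57 in fat labelled subcutaneous (0.00208) and Fdx1 fell by 1.003 in fat labelled visceral (0.0173). Por is a member of the list and passed in neither.

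Of 11 genes of heme synthesis and breakdown, 8 were tested in each label. With HFD 0 of 8 passed in fat labelled subcutaneous and 1 in fat labelled visceral, beside 10.3% and 8.93% of all genes. The latter was Urod, the uroporphyrinogen decarboxylase (0.41, limma adjusted p = 0.0161). With drug under HFD in fat labelled subcutaneous 1 of 8 rose and 1 fell, beside 4.4% and 23% of all genes. With drug under HFD in fat labelled subcutaneous, Alad, which makes porphobilinogen, rose from 18.2 to 56.7 TPM (1.46, SE 0.37, adjusted p = 0.0103). Hmox1, the heme oxygenase that is also abundant in macrophages, fell from 121 to 43.4 TPM (-1.40, SE 0.40, adjusted p = 0.0176). None of the 8 passed with drug in fat labelled visceral.

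Of 10 genes of the aryl hydrocarbon receptor system, 5 were tested in fat labelled subcutaneous and 4 in fat labelled visceral. Cyp1b1 was the only gene of this list that passed with HFD in fat labelled subcutaneous, where 10.3% of all genes passed. In fat labelled visceral 8.93% of all genes passed with HFD. Cyp1b1 fell in fat labelled visceral and Tiparp, another target gene of the receptor, rose (0.56, SE 0.17, limma adjusted p = 0.044), so that the list moved in both directions. No gene of this list passed with drug under HFD in either label, beside 27.4% and 5.18% of all genes. Of 15 oxysterol and bile acid precursor genes, 6 and 8 were tested and 0 passed in the diet and drug comparisons.

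Of 10 other oxidising enzymes of microsomes and of aldehyde and alcohol metabolism, 9 were tested in fat labelled subcutaneous and 8 in fat labelled visceral. In fat labelled subcutaneous 1 rose and 1 fell with HFD, beside 6.57% and 3.7% of all genes. With drug under HFD there, 1 rose and 1 fell, beside 4.4% and 23%. In fat labelled visceral 2 rose with HFD, beside 6.3%. Ephx1, the microsomal epoxide hydrolase, rose with HFD in fat labelled subcutaneous (0.95, SE 0.21, limma adjusted p = 0.00958) and fell with drug under HFD (-0.70, 0.0216). Aldh2, which oxidises acetaldehyde, fell with HFD there (-0.57, 0.0403), and Aldh1a1, a retinal dehydrogenase, was higher with drug under HFD (0.88, 0.0458). Adh1, an alcohol dehydrogenase that also acts on retinol, and Aldh1a1 rose with HFD in fat labelled visceral (0.82, adjusted p = 0.0262, and 1.19, adjusted p = 0.0279), and 0 of 8 passed with drug. With drug on a normal diet 0 genes of the 5 lists passed in either label.

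Genes with the most similar pattern were found by Pearson correlation of log2(TPM + 1) over 40 libraries, after subtracting the mean of each depot label, among 8799 genes. The points share library depth, tissue makeup and the treatment groups, so the values only rank genes. For Cyp2e1 these were Acsm3 (r = 0.94), Cfd (0.94), Sephs2 (0.899) and Sfxn1 (0.897), and for Cyp4b1 Fez2 (0.896), B3gnt3 (0.894), Angptl4 (0.884) and Robo4 (0.875). For Por they were Sik2 (0.91), Plin4 (0.892), Fitm2 (0.884) and Adipor2 (0.882). For Cyp27a1 they were Rab12 (0.82), Thra (0.82), Chp2 (0.791) and Palm (0.781), and for Cyp1b1 the nuclear or RNA-binding proteins' genes Sf1 (0.86), Nrm (0.849), Nfx1 (0.846) and Dhx15 (0.845). Among the members themselves the highest r was 0.566, between Cyp2e1 and Por, and the lowest -0.321, between Cyp2e1 and Cyp4b1. The genes named above were picked as the highest among 8799, with clone names and unnamed genes left out. Their values therefore cannot be compared with those of the member pairs.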

How the data were processed

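The authors deposited one table of TPM values, scaled to the gene span (judged from steps of 1 read in low values), for 55270 genes in 40 libraries. Per the submitters' processing notes, the build was GRCm39 and the tools were DESeq2 1.32.0, featureCounts 2.0.3, STAR 2.7.8 and FastQC 0.11.9; the annotation and any filters are not given in the sources used here. Groups and library numbers came from the labels. Changes were computed with limma 3.58.1 (R 4.3.3) on log2(TPM + 1), with trend and robust moderation, in 1 fit per depot label and 1 of all libraries for depot comparisons, for genes at 10 TPM or more in 5 libraries, with Benjamini-Hochberg adjustment over all genes tested (threshold 0.05). The pseudocount of 1 understates changes of low genes. Intervals are 1.96 SE wide on either side, which is slightly narrower than the limma test itself would give. Depth was estimated from low values and gene spans. For levels across genes, values were multiplied by span over exon length (GENCODE M21, on GRCm38) and set to the same total for 48969 genes. The test was tested on simulated data. Summaries used Python 3.11.15, pandas 2.3.3 and numpy 2.4.6.

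The members, the gene lists and the libraries rich in other tissues (epididymis and testis markers over 500 TPM in the label subcutaneous, B cell markers over 1000 TPM or liver markers over 500 TPM in the label visceral) were chosen with earlier results of these data known. Genes named were the 6 members, other P450 genes that passed or averaged over 10 TPM in a group, up to 4 passing genes per pathway list, and the 4 most similar genes per member. Alternatives were other pseudocounts and filters, quantile normalization, rescaling to exon length, the compared groups alone, a replicate block, and libraries left out.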

Additional observations from a re-analysis of the deposited data

Results flagged for a closer look

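In 13 of 128 sets of 1 gene in 1 group of 5 libraries, the highest or lowest library stood apart from the rest by more than Dixon's 95% limit of 0.71, which chance passes in about 5% of sets. Among the members these were Cyp1b1 in normal 91 labelled subcutaneous, at 251.5 TPM where the other 4 lay at 122.6 to 157.8 TPM, and Cyp27a1 in normal 98 labelled visceral, at 20.93 TPM where the others lay at 13.7 to 15.6 TPM.

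Cyp17a1 stood apart in normal 96 labelled subcutaneous (4.19 TPM, others at most 0.4167) and in HFD 82 (21.28 TPM, others at most 0.3829), where epididymis and testis markers summed to 954 and 427 TPM. Cyp4a14 stood apart in normal 96 labelled visceral (44.75 TPM, others at most 12.36), where liver markers summed to 496 TPM. It also did so in normal with drug 2 labelled visceral (3.625 TPM, others at most 0.4895), and in normal with drug 11 (4.206 TPM, others at most 0.8443) and HFD 83 (3.261 TPM, others at most 0.8329) labelled subcutaneous. The part of other tissues in these values was not tested.

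Cyp2b10 was at 16.93 TPM in HFD with drug 62 labelled visceral, where the others lay at 0.5069 to 1.949 TPM. Cyp2d22 was at 37.87 TPM in normal with drug 9 labelled subcutaneous, where the others lay at 84.1 to 101.7 TPM; that library held 70800 TPM of epididymis and testis markers. Cyp4f17 was at 13.86 TPM in HFD with drug 62 labelled subcutaneous (others 10.45 to 11.17) and at 24.31 TPM in normal with drug 2 labelled visceral (others 14.01 to 16.62). Cyp8b1 was at 5.678 TPM in HFD with drug 52 labelled subcutaneous (others 1.342 to 1.969).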

How the results depend on the processing

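Of 50 member results, 10 passed; over 275 alternatives to these 10, 37 ended the call and 0 turned the direction, and 7 alternatives brought an uncalled result past the threshold. Counts below are of all genes, then of P450 genes. With HFD in fat labelled subcutaneous, 799 and 5 became 495 and 3 with a filter of 30 TPM, 1356 genes in a fit of the compared groups, and 9 P450 genes with no filter. With drug under HFD there, 2129 and 3 became 1032 genes (filter of 30), 6 P450 genes (no filter), 5 rescaled to exon length and 0 (quantile normalization). With HFD in fat labelled visceral, 693 and 5 became 436 (filter of 30), 379 (compared groups) and 1066 genes (rescaled). They became 188 and 3 without the liver-rich libraries, a choice made after the data were seen, as was the rescaling. The fit without libraries rich in B cell markers leaves normal 92 alone in its group, so its counts are left out here. With drug under HFD there, 402 and 1 became 87 (no filter), 51 (compared groups) and 161 genes (rescaled), 1 and 0 with quantile normalization, 5 and 0 without B cell-rich and 7 and 0 without liver-rich libraries, and 2 P450 genes with a filter of 30. Between depot labels, 3676 and 10 became 8280 and 29 (no filter), 1885 and 4 (filter of 30), and 1662 and 3 without libraries rich in other tissues. For the drug by diet interaction, 1 gene became 2 (pseudocount 5), 0 (no filter), 2 (quantile) and 89 (without epididymis-rich libraries). For the label by HFD interaction, 0 became 1 with no filter, 3 rescaled and 1 with the replicate block. For the label by drug interaction, 16 became 29 and 5 (pseudocounts 0.5 and 5), 0 (no filter), 39 (filter of 30), 127 (quantile), 169 (rescaled), 0 and 1 (without libraries rich in other tissues or in liver), and 193 with the replicate block. The cause was not tested.

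Leaving out 1 library at a time gave 302 to 876 genes and 3 to 6 P450 genes with HFD in fat labelled subcutaneous, 1210 to 2053 and 1 to 3 with drug under HFD, and 245 to 1017 and 3 to 6, and 0 to 853 and 0 to 5, in fat labelled visceral. It gave 0 and 0 with drug on a normal diet in both labels, and 3415 to 3724 and 8 to 10 between labels. The interactions gave 0 to 15, 0 to 2 and 0 to 221 genes and 0 P450 genes.

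Same-numbered libraries of the 2 labels were not treated as paired, because the labels do not say that a title number marks a single animal. Their deviations from the group means correlated at -0.0986 to 0.14 over 16 pairs, 3 of them over 0.1. These correlations do not settle whether they share an animal. With the replicate block, 3892 genes and 10 P450 genes differed between labels. Cyp7b1 stayed below the filter on both scales and was not tested, at 15 reads or more per library. The filter on span-scaled TPM leaves out more genes with long introns.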
